A study of Mus musculus with 4 samples.

Results

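Cyclins and cyclin-dependent kinases (CDKs) were followed across the cell classes of DLA tumors through 10 genes, taken by symbol from the 32285 genes listed in the single-cell count matrices. The 10 genes were the D-type cyclins Ccnd1, Ccnd2 and Ccnd3, the E-type cyclins Ccne1 and Ccne2, the A-type cyclin Ccna2, and the kinases Cdk1, Cdk2, Cdk4 and Cdk6. The question was which D-type cyclin and which partner kinase each cell class carried, and whether the levels differed after SP11, an inhibitor of the chaperone HSP90. DLA is Dalton's lymphoma ascites, a transplantable mouse tumor line that was grown in Swiss albino mice after intraperitoneal injection. Tumors of control mice (Control 1 and Control 2) were compared with tumors of mice that received SP11 by mouth (Treated 1 and Treated 2), 30 mg/kg over 17 days. The labels give the controls as untreated, whereas a supplement of the study speaks of vehicle, and the number of mice behind a sample and their age were not given in the sources used here.

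A cell that leaves rest first makes D-type cyclins, which join CDK4 or CDK6 and phosphorylate the retinoblastoma protein, so that E2F factors are released. E2F factors then switch on E-type cyclins, the partners of CDK2 at the start of DNA replication, and cyclin A2 and CDK1 carry the cell through replication into mitosis. Cell types differ in the D-type cyclin they use, with cyclin D1 common in epithelial tissue and cyclins D2 and D3 common in blood cells, and CDK4 is a textbook client that the co-chaperone CDC37 brings to HSP90.

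Between 595 and 2277 cell barcodes per sample were deposited, with 9646197 to 13632163 unique molecular identifiers (UMIs, each 1 captured transcript 3′ end) per sample. Of these, 566 to 1831 barcodes per sample were kept, 4404 in all. Barcodes were shared between samples: 60 to 359 for each pair of samples, and 377, 237, 545 and 401 kept barcodes also occurred in another sample, out of 916, 566, 1831 and 1091. Results are therefore also given without those barcodes where they changed. Tumor cells were the 3211 kept barcodes with at least 5 UMIs of the keratin genes Krt8 and Krt18, and they numbered 845, 528, 1256 and 582 in the 4 samples, in the order of the controls and then the treated tumors, which is kept for every set of 4 values. Barcodes with at most 2 keratin UMIs and enough UMIs of marker genes were taken as monocytes and macrophages (24, 13, 151 and 117 cells), B cells (1, 0, 141 and 135), T cells (10, 1, 13 and 76), neutrophils (4, 0, 4 and 36) and dendritic-like cells (0, 0, 17 and 11). The labels give the cell type as lymphoma, and the keratin-positive cells did not carry leukocyte genes at the level of the immune classes. Ptprc, which encodes the leukocyte antigen CD45, reached 0.518, 0.211, 7.81 and 5.19 CPM (UMIs of a gene per 1000000 UMIs of the sum) in them against 189 and 379 CPM in the B cells of Treated 1 and Treated 2. The epithelial genes Epcam, Cdh1, Krt19 and Krt7 were all detected in the keratin-positive cells of each sample and together made 1730 to 2745 CPM.

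Among the D-type cyclins, tumor cells carried mostly Ccnd1, B cells both Ccnd2 and Ccnd3, and neutrophils mostly Ccnd3. Ccnd1 made 89.9%, 91.5%, 89.2% and 91.1% of the D-type cyclin UMIs of tumor cells, a mean of 90.4% ± 1.04 (SD, n = 4). Control and treated shares overlapped. Divided by the length of each gene's exons, the mean Ccnd1 share was 94.6%, and without barcodes found in another sample it was 90.3%. In B cells, Ccnd2 made 55% of 60 D-type cyclin UMIs in Treated 1 and 57.1% of 112 in Treated 2, and Ccnd3 made 43.3% and 42.0%. Per exon length the mean shares in B cells were 53.7% for Ccnd2 and 43.8% for Ccnd3, so the order of both genes was the same on either scale. The exact 95% counting intervals of both levels overlapped in each sample. In Treated 1 they were 159 to 324 CPM for Ccnd2 and 119 to 267 CPM for Ccnd3. In Treated 2 they were 210 to 348 CPM for Ccnd2 and 147 to 266 CPM for Ccnd3. Without barcodes found in another sample the mean Ccnd2 share of B cells was 53.9%. B cells of the control tumors could not be read, since those samples held 1 and 0 such cells.

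**Figure D1:**
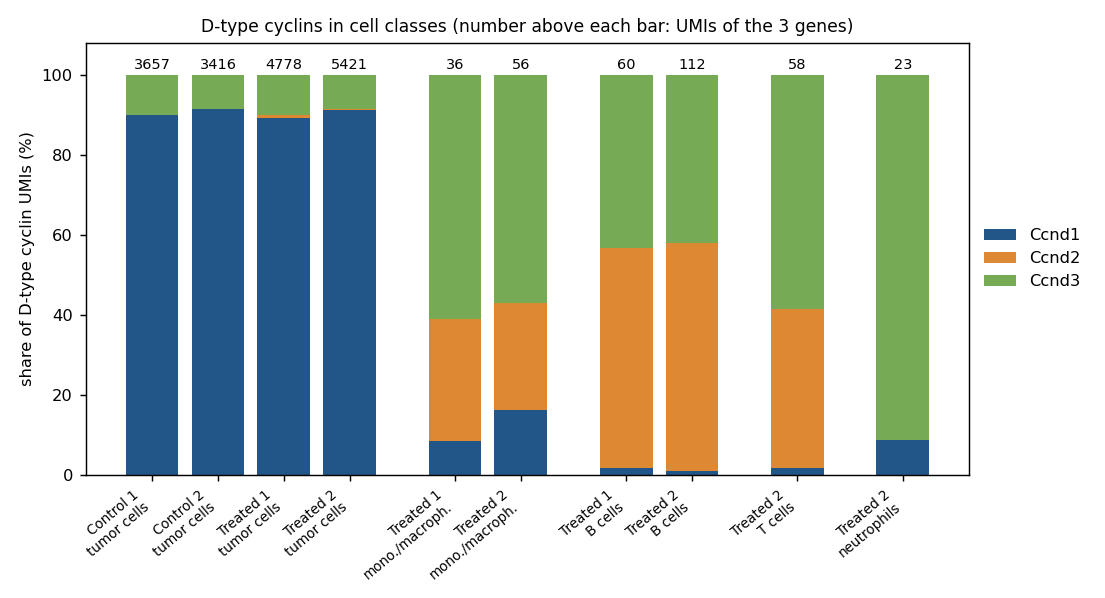
Stacked bars give the share (%) of Ccnd1, Ccnd2 and Ccnd3 among the D-type cyclin UMIs of each cell class and sample with at least 20 such UMIs, whose number stands above the bar. Ccnd1 makes 89.2% to 91.5% of the bars of tumor cells and at most 16.1% of the bars of immune classes.

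T cells were read in Treated 2 only, where Ccnd3 made 58.6%, Ccnd2 39.7% and Ccnd1 1.72% of 58 D-type cyclin UMIs. The 23 D-type cyclin UMIs of neutrophils in Treated 2 were 91.3% Ccnd3, with 2 UMIs of Ccnd1 and 0 of Ccnd2, which allows a Ccnd2 share of up to 13.0%. In monocytes and macrophages Ccnd3 made 61.1% and 57.1% of the D-type cyclin UMIs in Treated 1 and Treated 2, Ccnd2 30.6% and 26.8%, and Ccnd1 8.33% and 16.1%. Ccnd3 was in front in this class, and its mean Ccnd3 share was 59.1% by UMIs, 54.6% per exon length and 52.5% without barcodes found in another sample. Control monocytes and macrophages had 9 and 6 D-type cyclin UMIs, and dendritic-like cells 5 and 7, too few to read a share. These intervals and limits cover counting error only.

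Ccnd1, the cyclin that growth factor signals induce in epithelial cells, stood at 341 and 329.6 CPM in the tumor cells of Control 1 and Control 2 and at 347 and 407 CPM in Treated 1 and Treated 2. In the immune classes its level was far lower, with 1 UMI each in the B cells of Treated 1 and Treated 2 (7.0 and 4.26 CPM) and 1 UMI in the T cells of Treated 2 (13.5 CPM). Monocytes and macrophages held 66.0, 17.3 and 35.6 CPM in Control 1, Treated 1 and Treated 2, from 3, 3 and 9 UMIs. Every tumor sum lay above every immune sum. Over the samples of each class, the tumor level was 69.3-fold that of B cells (exact 95% counting interval 19.2 to 572) and 9.05-fold that of monocytes and macrophages (5.86 to 14.8). Keratin UMIs were present in the immune sums as well, at 343 and 222 CPM in B cells and 206 to 286 CPM in monocytes and macrophages against 2429 to 4723 CPM in tumor cells, and their part in the Ccnd1 UMIs of those classes was not tested.

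Ccnd2, a D-type cyclin typical of lymphocytes, ran the other way. B cells held 231 and 273 CPM in Treated 1 and Treated 2, T cells 310 CPM in Treated 2, and monocytes and macrophages 22.0, 63.4 and 59.3 CPM in Control 1, Treated 1 and Treated 2. Tumor cells had 1, 2, 30 and 13 Ccnd2 UMIs in the 4 samples, which is 0.104, 0.211, 2.44 and 1.07 CPM. Each of these immune sums lay above every tumor sum, while the neutrophils of Treated 2 held 0 Ccnd2 UMIs among 26064. In the same samples the B cell level was 199-fold the tumor level (138 to 290), or 146-fold without Control 1, which held 1 B cell, 423-fold without Treated 1 and 163-fold without Treated 2. The pooled levels of B cells (256 CPM, 208 to 313) and T cells (287 CPM, 188 to 421) had overlapping intervals.

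Ccnd3, the D-type cyclin of many blood cells, was present in every class. Tumor cells held 38.3, 30.6, 39.5 and 38.7 CPM, monocytes and macrophages 110, 127 and 126.5 CPM (Control 1, Treated 1, Treated 2), B cells 182 and 200.3 CPM (Treated 1, Treated 2), T cells 458 CPM and neutrophils 806 CPM (Treated 2). All immune sums lay above all tumor sums. Pooled over samples, the order from low to high was tumor cells (37.0 CPM, 35.3 to 38.9), monocytes and macrophages (119, 90.7 to 153), B cells (193, 151 to 243), T cells (442, 316 to 601.5) and neutrophils (695, 435 to 1052). The intervals of tumor cells and of monocytes and macrophages did not overlap, those of monocytes and macrophages and B cells overlapped, those of B and T cells did not overlap, and those of T cells and neutrophils overlapped.

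**Figure D2:**
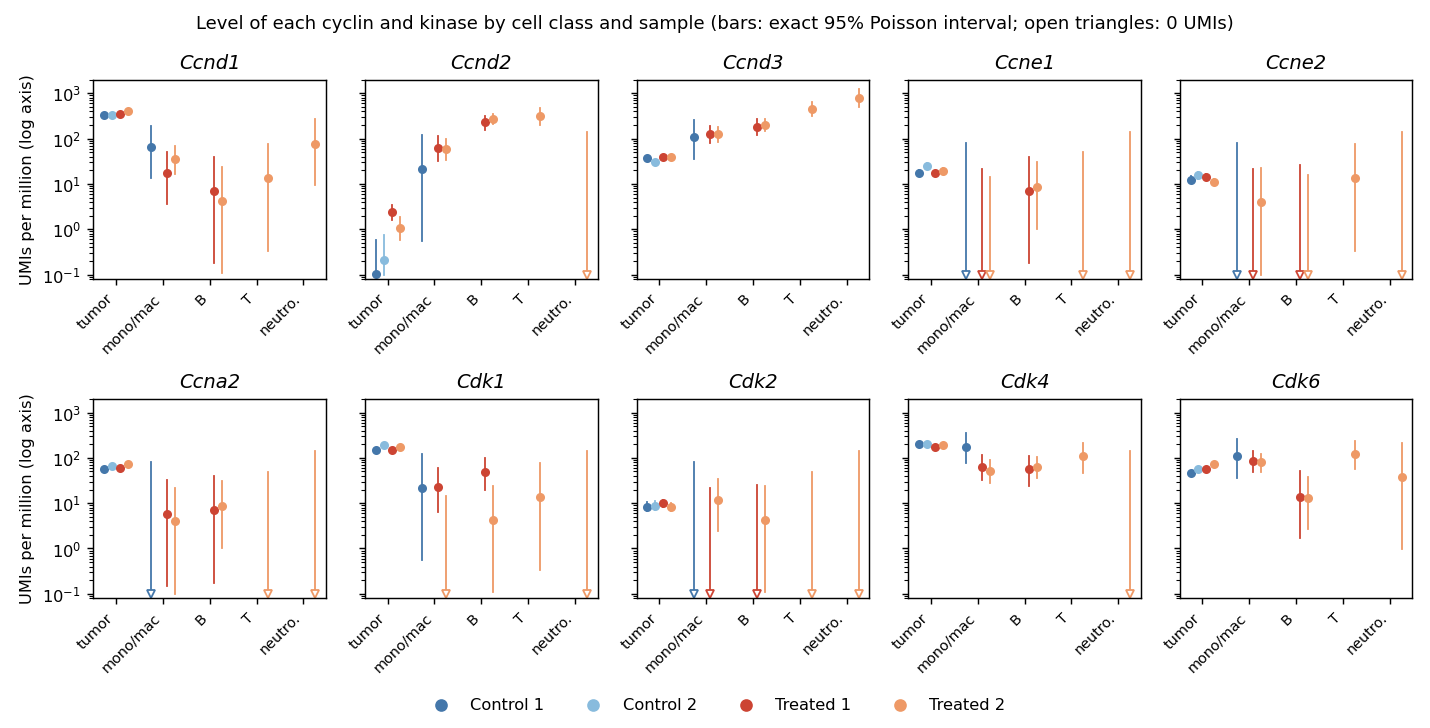
Each panel plots the level of 1 gene (CPM, log axis) by cell class for samples with at least 20 cells of the class, with exact 95% Poisson intervals as bars and open triangles at the axis floor for 0 UMIs. Ccnd1 (329.6 to 407 CPM), Ccna2 and Cdk1 are highest in the tumor cells, and Ccnd2 and Ccnd3 are highest in immune classes.

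Of the kinases that D-type cyclins join, tumor cells carried mainly Cdk4. Cdk4 stood at 199, 205, 176 and 197 CPM in tumor cells, at 176, 63.4 and 51.4 CPM in monocytes and macrophages of Control 1, Treated 1 and Treated 2, and at 56.0 and 63.9 CPM in B cells of Treated 1 and Treated 2. The value of 176 CPM in monocytes and macrophages rested on 8 UMIs in 24 cells and reached the lowest tumor sum, whereas the treated immune sums lay below all tumor sums. Cdk6, the second partner of D-type cyclins, stood at 46.4, 57.8, 56.9 and 74.9 CPM in tumor cells, at 110, 86.5 and 79.1 CPM in monocytes and macrophages, at 14.0 and 12.8 CPM in B cells and at 121 CPM (9 UMIs) in T cells. Monocytes and macrophages were above the tumor sums by a small margin, and B cells were below them. The Cdk6 share of Cdk4 and Cdk6 UMIs was a mean of 23.2% ± 3.67 (SD, n = 4) in tumor cells and 57.7% and 60.6% in monocytes and macrophages of Treated 1 and Treated 2. Per exon length (13989 bases for Cdk6 and 3249 bases for Cdk4) Cdk6 fell behind Cdk4 in both classes. Its mean shares were then 6.60% in tumor cells and 25.2% in monocytes and macrophages. A UMI counts 1 transcript 3′ end and need not scale with exon length, so this scale may not suit these counts. The order of both kinases in monocytes and macrophages depended on it. The ratio of Ccnd1 to Cdk4 UMIs was 1.71, 1.61, 1.97 and 2.07 in tumor cells and 0.125 and 0.0667 in B cells.

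The later cyclins and kinases rested on few UMIs in the immune classes, at most 7 per gene in any sum, and were read mainly in tumor cells. Cdk1, the kinase of entry into mitosis, stood at 147, 189, 148 and 171 CPM and its partner Ccna2 at 56.7, 65.1, 59.2 and 73.8 CPM. Ccne1 stood at 17.5, 25.3, 17.3 and 19.4 CPM, Ccne2 at 12.4, 15.5, 14.3 and 11.1 CPM and Cdk2, their partner, at 8.40, 8.86, 9.85 and 8.41 CPM. Ccne1 was the more abundant E-type cyclin in all 4 samples, at a mean of 59.7% ± 3.96 of their UMIs (SD, n = 4) and 66.0% per exon length. Monocytes and macrophages held 0 UMIs of Ccne1 among 504966, so the tumor level was at least 3.31-fold higher, taking 3 UMIs over the class as the floor (at least 1.66-fold without Treated 2 and 2.28-fold without Treated 1). B cells held 7 Cdk1 UMIs in Treated 1 and 1 in Treated 2 (49.0 and 4.26 CPM), and the pooled Cdk2 levels of monocytes and macrophages (5.94 CPM, 1.23 to 17.4) and of tumor cells (8.91 CPM, 8.05 to 9.84) had overlapping intervals.

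By their pattern over the 11 sums of class and sample with at least 20 cells, the genes most like each D-type cyclin were taken as those with the highest Pearson r of log2 CPM among 6568 genes. Ccnd1 was most like Psma6 (r = 0.966), Eif4ebp1 (0.963) and Chchd3 (0.961), Ccnd2 most like Rab4b (0.938), Cmss1 (0.937) and S100a4 (0.929), and Ccnd3 most like Smap2 (0.985), Arrdc1 (0.985) and Ptbp3 (0.977). Sums of 1 sample share its library and the classes differ in depth, so these values describe likeness only.

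The classes were contrasted with tumor cells by edgeR on summed UMIs with the sample as a block, and 7 of the 10 genes passed the filter on low counts (Ccne1, Ccne2 and Cdk2 did not). In monocytes and macrophages 2 of the 7 were higher (29.9% of all 6508 genes tested) and 4 were lower (31.1% of all genes). In B cells 2 were higher (24.8%) and 5 were lower (24.4%). Ccna2 passed the filter only through tumor sums and Ccnd2 only through immune sums, where each was high. The calls of these genes therefore do not count as separate support for their differences. Ccnd3 was higher by 1.49 ± 0.28 on the log2 scale (SE) in monocytes and macrophages (edgeR adjusted p = 4.78e-07) and by 2.41 ± 0.29 in B cells (edgeR adjusted p = 7.34e-16). Cdk4 was lower in both, at -1.59 ± 0.27 (edgeR adjusted p = 1.64e-08) and -1.46 ± 0.32 (edgeR adjusted p = 2.03e-05). Cdk6 split the classes, with 0.26 ± 0.31 in monocytes and macrophages (edgeR adjusted p = 0.472) and -2.20 ± 0.57 in B cells (edgeR adjusted p = 0.000479). Ccnd2 was higher and Ccnd1, Ccna2 and Cdk1 were lower in both contrasts. Their fitted folds rest on sums of few UMIs on one side, so the counting ratios are the better measure: Cdk1 was 16.5-fold (7.06 to 50.8) and Ccna2 16.2-fold (4.47 to 134) higher in tumor cells than in monocytes and macrophages, and Cdk1 7.37-fold (3.74 to 17.1) and Ccna2 8.03-fold (2.74 to 39.0) higher than in B cells. The Cdk1 ratios turned on single samples: against B cells Cdk1 was 3.02-fold (1.47 to 7.53) higher without Treated 2 and 37.7-fold (6.76 to 1490.0) without Treated 1, and against monocytes and macrophages 8.07-fold (3.46 to 24.9) and 56.0-fold (10.1 to 2214). Without Treated 2, the contrast of B cells rested on 1 B cell sum and the calls of Ccna2, Cdk1, Cdk4 and Cdk6 were lost (edgeR adjusted p = 0.143, 0.119, 0.101 and 0.340), as was that of Ccnd3 in monocytes and macrophages (edgeR adjusted p = 0.118).

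Other genes of the cyclin and CDK system were read from a list of 67, of which 39 were tested in these contrasts. In monocytes and macrophages 6 were higher (29.9% of all genes were) and 16 lower (31.1% of all genes), with a median log2 difference of -0.60 against -0.07 over all genes. In B cells 9 were higher (24.8% of all genes were) and 12 lower (24.4% of all genes), counts near those shares, with a median of -0.14 against -0.07. Cdk8, the kinase of the Mediator complex, was higher in both (2.32 ± 0.20 and 2.57 ± 0.23, edgeR adjusted p = 1.16e-28 and 3.08e-28), as was Rbl2, the pocket protein p130 of resting cells (2.10 ± 0.79 and 3.24 ± 0.75, edgeR adjusted p = 0.0149 and 7.37e-05). The inhibitor Cdkn1a (p21) moved in opposite directions, higher by 1.92 ± 0.21 in monocytes and macrophages and at -2.69 ± 0.52 in B cells (edgeR adjusted p = 1.59e-19 and 1.2e-06). Cdkn1b (p27) was higher in B cells by 1.50 ± 0.41 (edgeR adjusted p = 0.000775). The mitotic cyclins Ccnb1 and Ccnb2, the CDK-binding subunits Cks1b and Cks2 and the mitotic activator Cdc20 were lower in both contrasts, with log2 differences between -4.20 and -1.31. Of the chaperone genes, Hsp90aa1, Hsp90ab1 and Cdc37 were lower in both, at -2.52 ± 0.16, -1.72 ± 0.12 and -1.21 ± 0.21 in monocytes and macrophages and at -2.71 ± 0.19, -1.60 ± 0.14 and -0.59 ± 0.23 in B cells.

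SP11 was compared with control in tumor cells over 11588 genes tested, with 2 samples per group, so the p-values measure the spread between these samples only. Of the 10 genes, 1 (Ccnd2) was higher after SP11 (1.81% of all genes were called higher) and 0 were lower (0.501% of all genes), by edgeR at an adjusted p of 0.05. Ccnd2 passed the filter on low counts only through the treated samples. At an unadjusted p under 0.05 the edgeR count was 2, Ccnd2 and Ccne1 (14.6% of all genes tested were under it), and DESeq2 called 0 of the 10. The median log2 difference of the 10 genes was -0.023 against -0.0039 over all genes tested. By CPM the treated samples lay above both controls for Ccnd1, Ccnd2 and Ccnd3 (36.8% of all genes did) and below both for Cdk4 (8.12% of all genes did), and the groups overlapped for the other 6.

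Ccnd2 in tumor cells was counted 1 and 2 times in the control samples and 30 and 13 times in the treated samples. Both treated samples were above both controls, and the counting ratio was 11.2 (exact 95% interval 3.59 to 56.6) from 43 against 3 UMIs. That interval pools the UMIs of 2 samples per group and covers counting error only, not the spread between samples. The levels of Treated 1 and Treated 2 were themselves apart, at 2.44 and 1.07 CPM. The fitted log2 difference was 3.28 ± 0.74 (SE, edgeR adjusted p = 0.0222). Ccnd2 passed the filter on low counts only through the treated samples, where it was high. This test therefore does not count as separate support for the difference. The call was lost with DESeq2 (adjusted p = 0.138), without Control 1 (edgeR adjusted p = 0.180), without Control 2 (0.177), without Treated 1 (0.212) and without barcodes found in another sample (0.0539). Immune and erythroid markers were also higher in the treated tumor cells, and their part in the Ccnd2 difference was not tested. Counts without cells that passed an immune gate are given as a description. The share of tumor cells that also passed an immune gate was 4.50%, 7.95%, 14.3% and 22.9%, the 3 B cell markers Cd79a, Cd79b and Ms4a1 together made 0.726, 1.37, 47.4 and 25.4 CPM, and the 6 T cell markers made 1.55, 0.211, 8.46 and 4.37 CPM. Of the B cell markers, Cd79b and Ms4a1 were at 0 in Control 1 and Cd79b in Control 2, while all 3 were detected in the treated samples. The 9 monocyte and macrophage markers made 9.23, 9.60, 54.2 and 19.2 CPM and the 4 hemoglobin genes 267, 178, 10605 and 4735 CPM. Of the Ccnd2 UMIs in treated tumor cells, 19 of 30 and 7 of 13 lay in cells that passed an immune gate, at 9.51 and 2.35 CPM against 1.07 and 0.656 CPM in the other tumor cells. In tumor cells that passed no immune gate the counting ratio was 7.67 (1.82 to 68.5) from 17 against 2 UMIs, too few for the filter, so no test was made there. The interval of this ratio also covers counting error only.

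The other D-type cyclins differed little. Ccnd1 was at 0.04 ± 0.13 on the log2 scale (edgeR adjusted p = 0.922) and Ccnd3 at 0.06 ± 0.14 (0.899). For Cdk4 the difference was -0.25 ± 0.12 (0.364) and for Cdk6 0.21 ± 0.14 (0.520). Neither kinase passed the test. The Cdk6 share of Cdk4 and Cdk6 UMIs was 18.9% and 22.0% for Control 1 and 2 and 24.4% and 27.6% for Treated 1 and 2. The treated shares were both above the control shares, with means of 20.4% ± 2.15 and 26.0% ± 2.22 (SD, n = 2 each) and a difference of 5.56 percentage points (two-sided exact permutation test p = 0.333, the smallest that 2 against 2 samples allow). Without barcodes found in another sample the shares were 21.2%, 22.4%, 24.9% and 27.6%.

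Among the later genes, Ccne1 was at -0.35 ± 0.17 (edgeR adjusted p = 0.342), Ccne2 at -0.25 ± 0.19 (0.569), Ccna2 at -0.0036 ± 0.13 (0.993), Cdk1 at -0.20 ± 0.13 (0.519) and Cdk2 at -0.04 ± 0.19 (0.946). None of these 5 passed the test, and for Ccne1 Control 2 alone was high (25.3 CPM against 17.3 to 19.4 CPM in the other 3 samples). Scaling to total UMIs in place of TMM moved the median of all genes by 0.12 on the log2 scale and turned Ccna2 to 0.13 and Cdk2 to 0.08, and neither passed the test on either scale. The 67 histone genes, which are expressed during DNA replication, stood at 3501, 3752, 2660 and 1648 CPM in tumor cells, lower in both treated samples than in both controls. The groups overlapped for the lists of 17 G1/S genes (1216, 1360, 1262 and 1428 CPM) and 21 mitotic genes (2398, 2489, 2365 and 2565 CPM). Differences in these list sums were not tested. Fitted within each of the 4 cell cycle ranges described further on, edgeR called 0 of the members it tested. The ranges were filled unequally, with 13.7%, 16.5%, 19.0% and 35.9% of tumor cells in the G1/S range. The count of 0 therefore does not show that levels were unchanged within a cycle stage. In the histone range, 1 of the treated sums rested on 9 cells. Ccnd2 held 17 UMIs in the low range of Treated 1 and at most 6 in any other sum. These were too few for the filter, so Ccnd2 was not tested within ranges.

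**Figure D3:**
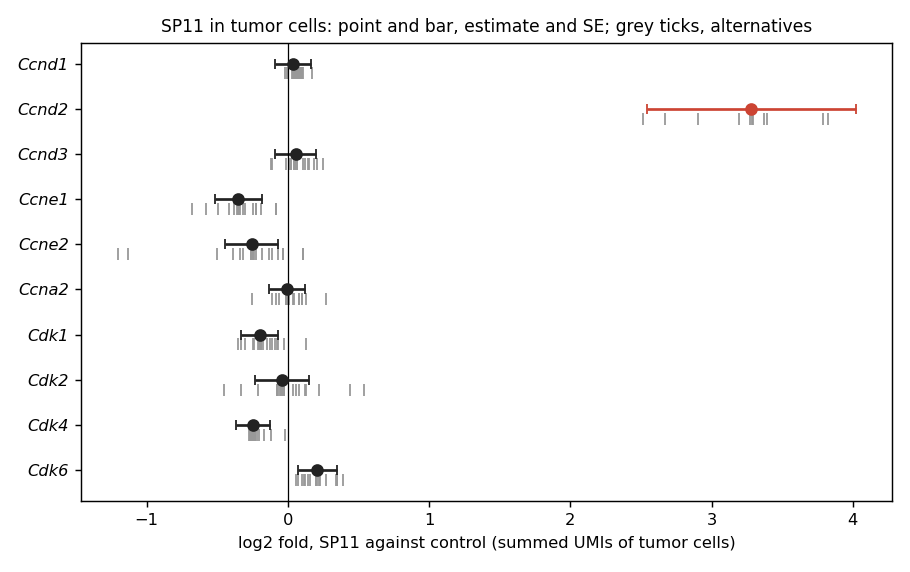
Points give the log2 difference of SP11 against control in summed UMIs of tumor cells for each of the 10 genes, with the SE as bars, and grey ticks give the same value under the alternatives tried. Ccnd2 alone was called (3.28, red), a gene that passed the filter on low counts only through the treated samples. The other 9 estimates lie between -0.35 and 0.21.

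Of the 67 other genes of the system, 64 were tested for SP11 in tumor cells. The test of edgeR called 0 of them (1.81% of all genes were called higher and 0.501% lower). At an unadjusted edgeR p under 0.05 there were 3 (Cdc25b, Ambra1 and Cdk12), a smaller share than the 14.6% of all genes. Their median log2 difference was 0.012 against -0.0039 over all genes. The inhibitor Cdkn1a stood at 76.2, 81.7, 88.5 and 89.0 CPM (0.04 ± 0.12, edgeR adjusted p = 0.902). Hsp90aa1, the stress-inducible gene of the drug's target, stood at 2020, 2363, 2325 and 2711 CPM (0.07 ± 0.14, edgeR adjusted p = 0.867), with overlapping groups. Hsp90ab1, the constitutive HSP90 gene, was at -0.018 ± 0.15 (0.968) and Cdc37 at -0.036 ± 0.14 (0.934). SP11 in monocytes and macrophages was not tested, since Control 2 held 13 such cells, fewer than the 20 required for a sum. Their Ccnd3 levels were 110, 30.2, 127 and 126.5 CPM in the 4 samples, where the control values rest on 5 and 1 UMIs.

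At the level of single tumor cells, Ccnd1 was the gene most often seen. With each cell thinned to 5000 UMIs, a Ccnd1 UMI was found in 82.4%, 75.7%, 80.6% and 86.8% of the cells, a mean of 81.4% ± 4.57 (SD, n = 4), against 93.5% without thinning. A Cdk4 UMI was found in 62.5% ± 3.90, Cdk1 in 48.2% ± 2.48, Cdk6 in 24.0% ± 4.84, Ccna2 in 23.9% ± 1.48 and Ccnd3 in 16.7% ± 1.35 of cells. Ccne1 (8.77%), Ccne2 (6.78%), Cdk2 (4.29%) and Ccnd2 (0.571%) were found in fewer than 10% of cells. At 500 UMIs per cell, which immune cells also reach, Ccnd1 was found in 13.4% to 18.0% of tumor cells and in 0 of 141 and 0 of 135 B cells (Treated 1 and Treated 2), which allows up to 2.13% and 2.22% of cells with a UMI at that depth (3 cells of the total), with exact 95% bounds of 2.58% and 2.70%. Ccnd2 was found in 11.3% and 8.15% of those B cells and in 0 to 1 tumor cells per sample at that depth. Ccnd3 was found in 8.51% and 9.63% of those B cells, so the order of both genes differed between Treated 1 and Treated 2.

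**Figure D4:**
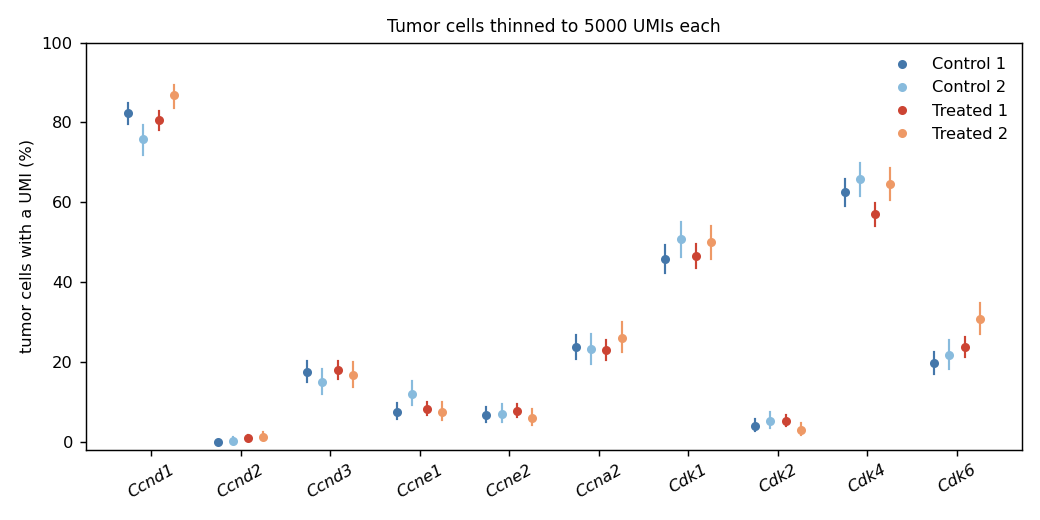
Points give the share (%) of tumor cells with at least 1 UMI of each gene after thinning every cell to 5000 UMIs, by sample, with exact 95% binomial intervals as bars. Ccnd1 (75.7% to 86.8%) leads in all 4 samples, followed by Cdk4 and Cdk1.

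In thinned counts, the spread between tumor cells was close to that of counting alone, for which the variance equals the mean. At 5000 UMIs per cell the variance of Ccnd1 over cells was 1.05 to 1.12 times its mean and that of Cdk4 1.05 to 1.10 times. Cdk1 spread most, at 1.14 to 1.36 times. The mean count per thinned cell was 1.57 to 2.12 UMIs for Ccnd1 and 0.668 to 0.838 for Cdk1. At means this low counting makes up most of the variance, so a ratio near 1 does not show that cells were alike. Cells with a Ccna2 UMI had a Cdk1 UMI more often than cells without one: 59.8% against 41.3% in Control 1, 56.8% against 48.9% in Control 2, 60.1% against 42.5% in Treated 1 and 58.0% against 47.1% in Treated 2. The direction was the same in all 4 samples. A Ccnd3 UMI was found in 17%, 16.3%, 16.9% and 16.6% of cells with Ccnd1 and in 19.1%, 10.5%, 22.4% and 17.1% of cells without it, so no single direction appeared.

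To place the genes in the cell cycle, tumor cells were split by 3 lists that hold none of the 10 genes: 17 genes of the G1/S transition, 67 histone genes and 21 mitotic genes. A cell went to the list on which its percentile among tumor cells was highest and at least the 70th, and otherwise to a low range. The ranges are cuts of a score and not cell types, and 48 to 164 cells per sample lay within 5 percentile points of the cut. The histone range held 31.7%, 29.4%, 20.2% and 1.55% of the tumor cells of the 4 samples, so in Treated 2 it rested on 9 cells. Leaving that sum out changed no call of the members in any range. Summed UMIs of each range were set against the low range by edgeR with the sample as a block, over 9798 genes, and Ccnd2 was too low to test.

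In the G1/S range 5 of 9 genes tested were higher (8.23% of all genes) and 0 were lower (7.55% of all genes). In the histone range 3 were higher (9.19%) and 0 were lower (7.71%), and in the mitotic range 3 were higher (8.85%) and 3 were lower (10.7%). With scaling to total UMIs the counts over all genes shifted toward higher, from 806 higher and 740 lower to 1158 and 337 in the G1/S range, from 900 and 755 to 1022 and 555 in the histone range and from 867 and 1046 to 1288 and 519 in the mitotic range. Under that scaling Cdk4 was also called higher in the G1/S range (0.16, edgeR adjusted p = 0.0246), as were Cdk4 (0.19, 0.0123) and Ccnd1 (0.15, 0.0140) in the histone range.

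Cdk1 and Ccna2 climbed from the low to the mitotic range. Cdk1 stood at 47.5, 76.1, 80.9 and 67.1 CPM in the low range and at 233, 255, 226 and 254 CPM in the mitotic range. Every mitotic value lay above every low value, and the log2 difference was 1.73 ± 0.07 (edgeR adjusted p = 9.47e-31), with 1.08 ± 0.08 in the G1/S range and 1.50 ± 0.08 in the histone range. Ccna2 stood at 25.8, 35.0, 41.1 and 39.3 CPM in the low range and at 91.2, 103, 94.4 and 112 CPM in the mitotic range. It too was higher in every sample, by 1.39 ± 0.09 (edgeR adjusted p = 6.3e-22), with 0.84 ± 0.10 in the histone range and 0.49 ± 0.10 in the G1/S range.

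The E-type cyclins were higher in the G1/S than in the low range. Ccne2 stood at 9.94, 9.77, 11.4 and 9.67 CPM in the low range, at 14.7, 28.4, 26.7 and 19.7 CPM in the G1/S range, at 19.1, 17.1 and 22.2 CPM in the histone range of Control 1, Control 2 and Treated 1 (0 UMIs among 185258 in Treated 2) and at 5.02, 9.75, 2.81 and 3.84 CPM in the mitotic range. The G1/S value was the highest in each sample but Control 1, where the histone value was, and apart from the 0 in Treated 2 the mitotic value was the lowest. The log2 differences from the low range were 1.07 ± 0.18 in the G1/S range (edgeR adjusted p = 6.68e-06), 0.77 ± 0.20 in the histone range (0.00258) and -1.13 ± 0.25 in the mitotic range (0.000296). Ccne1 stood at 16.9, 19.5, 17.6 and 17.6 CPM in the low range, at 25.5, 35.6, 23.3 and 28.2 CPM in the G1/S range, at 19.7, 28.9, 19.8 and 16.2 CPM in the histone range and at 10.9, 18.6, 10.3 and 11.8 CPM in the mitotic range. It was highest in the G1/S range of each sample, with 0.56 ± 0.13 in the G1/S range (edgeR adjusted p = 0.00109) and -0.61 ± 0.15 in the mitotic range (0.00146). Cdk2 stood at 7.36, 6.51, 9.51 and 6.15 CPM in the low and at 12.4, 15.7, 13.1 and 9.85 CPM in the G1/S range, higher in each sample (0.61 ± 0.21, edgeR adjusted p = 0.0353). Without barcodes found in another sample the G1/S calls of Ccne1 (edgeR adjusted p = 0.0779) and Cdk2 (0.112) and the histone call of Ccne2 (0.128) were lost. With DESeq2 those of Cdk2 in the G1/S range (adjusted p = 0.0912) and Ccne2 in the histone range (0.0732) were lost, and Cdk2 also missed the threshold without Control 1, Control 2 or Treated 1 (edgeR adjusted p = 0.0816, 0.212 and 0.0531).

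The D-type cyclins and their kinases varied less across the ranges. Ccnd3 stood at 43.8, 32.2, 40.2 and 45.7 CPM in the low range and at 32.6, 30.6, 34.1 and 29.3 CPM in the mitotic range. It was lower in the mitotic range of each sample, at -0.45 ± 0.10 (edgeR adjusted p = 0.000532). Ccnd1 stood at 321, 291, 319 and 396 CPM in the low range and at 368, 374, 385 and 441 CPM in the mitotic range. It was higher in each sample by a small amount, 0.16 ± 0.04 (edgeR adjusted p = 0.00616), and missed the threshold without Treated 1 (0.0577). Cdk4 was at 0.09 ± 0.06, 0.15 ± 0.06 and -0.03 ± 0.05 and Cdk6 at -0.10 ± 0.09, -0.16 ± 0.10 and -0.06 ± 0.08 in the G1/S, histone and mitotic ranges, and neither was called in any of them.

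**Figure D5:**
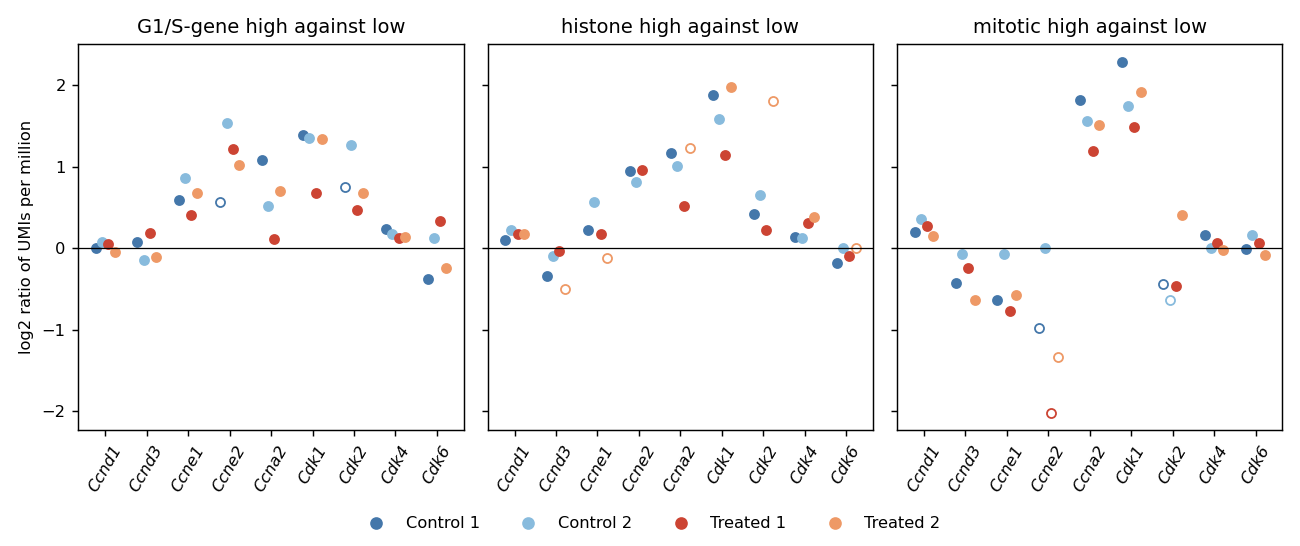
Points give, for each sample, the log2 ratio of a gene's CPM in 1 range of tumor cells to that in the low range, with open points where the range held fewer than 20 UMIs of the gene. Cdk1 and Ccna2 lie above 0 in all 3 ranges and every sample, whereas Ccne1 and Ccne2 lie above 0 in the G1/S range and at or below 0 in the mitotic range.

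Among the 67 other genes of the system, 63 were tested in the ranges. The G1/S range had 16 higher and 6 lower (8.23% and 7.55% of all genes were). The histone range had 17 and 4 (9.19% and 7.71% of all genes) and the mitotic range 20 and 8 (8.85% and 10.7% of all genes). The median log2 differences were 0.057, 0.070 and 0.14 against -0.0081, -0.020 and -0.013 over all genes. Of the 12 pocket protein and E2F genes tested, 7 were higher in the G1/S range and 0 lower, among them E2f8 (1.40 ± 0.20, edgeR adjusted p = 1.69e-07), E2f7 (1.13 ± 0.15, 2.78e-08) and E2f1 (0.92 ± 0.09, 4.66e-13), which act on the genes of DNA replication. In the mitotic range E2f1 was at -0.47 ± 0.10 (edgeR adjusted p = 0.000435). All 3 tested B- and F-type cyclins were higher in the mitotic range: Ccnb1 by 1.63 ± 0.07, Ccnb2 by 0.73 ± 0.07 and Ccnf by 2.21 ± 0.14 (edgeR adjusted p = 2.78e-29, 3.1e-13 and 7.58e-22). The phosphatases Cdc25b (1.85 ± 0.16) and Cdc25c (1.46 ± 0.13), which activate CDK1, were higher there too (edgeR adjusted p = 4.74e-16 and 2.48e-14). Of the INK4 inhibitors, which bind CDK4 and CDK6, Cdkn2d was higher by 1.89 ± 0.10 and Cdkn2c by 1.23 ± 0.26 in the mitotic range (edgeR adjusted p = 3.56e-26 and 0.000193). Cdkn2a was at -0.75 ± 0.21 there (edgeR adjusted p = 0.00606). Not all transcripts of Cdkn2a encode an INK4 inhibitor, and 3′ UMIs do not tell them apart.

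Promoters were looked at for the kinases that varied with the ranges, since E2F sites, the cell cycle homology region (CHR) and CCAAT boxes are the known letters of such promoters. RefSeq (GRCm38.p6) gave promoter windows for 6 of the 10 genes: Ccnd3, Ccne1, Cdk1, Cdk2, Cdk4 and Cdk6. The entries missing were Ccnd1, Ccnd2, Ccne2 and Ccna2. In the 250 bases before each start, both strands were searched for E2F letters (TTTCCCGC, TTTCGCGC, TTTGCCGC or TTTGGCGC), CHR letters (TTTGAA or TTCGAA) and CCAAT. Of 32851 windows of the same length over all genes, 1.86% held the E2F letters, 17.1% the CHR letters and 33.8% CCAAT. The 2 members with E2F letters were Cdk1 and Cdk2, and Cdk1 alone held CHR letters. Both windows are printed 5′ to 3′ on the gene's own strand, with the matches in capitals, since only these of the 6 genes hold E2F letters.
Cdk1 (chr10:69352913-69353162, minus strand): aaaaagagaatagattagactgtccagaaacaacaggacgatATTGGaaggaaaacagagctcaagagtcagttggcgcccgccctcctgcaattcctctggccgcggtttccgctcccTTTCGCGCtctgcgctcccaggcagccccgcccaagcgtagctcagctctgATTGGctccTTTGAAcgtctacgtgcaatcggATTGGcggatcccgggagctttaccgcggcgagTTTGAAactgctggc
Cdk2 (chr10:128705052-128705301, minus strand): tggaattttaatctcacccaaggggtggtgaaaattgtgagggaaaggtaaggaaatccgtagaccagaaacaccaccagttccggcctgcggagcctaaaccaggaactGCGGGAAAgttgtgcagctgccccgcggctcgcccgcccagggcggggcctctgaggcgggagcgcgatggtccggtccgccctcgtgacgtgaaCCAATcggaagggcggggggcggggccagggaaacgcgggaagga
In Cdk1, the E2F letters stood at 131 to 124 bases before the start, the CHR letters at 71 to 66 and 15 to 10, and CCAAT on the reverse strand (read as ATTGG) at 208 to 204, 80 to 76 and 48 to 44, with no overlap between matches. In Cdk2, the E2F letters stood on the reverse strand at 140 to 133 and CCAAT at 45 to 41. Of the other 4 genes, the letters were found only in Ccnd3, with 1 CCAAT in the second of its 2 windows. GENCODE places the gene Cdk1 at chr10:69335146-69352938, so the last bases of its window lie within the gene by that annotation, and Cdk2 at chr10:128697939-128705031, wholly beyond its window. A match is a description of letters and not a site in use, and no factor was measured.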

How the data were processed

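The tumors were profiled by 10x Genomics 3′ single-cell RNA sequencing. For each of the 4 samples the authors deposited raw counts of UMIs for each gene in each barcode, not normalized, made with Cell Ranger 7.1.0 per the file headers. The submitters' processing notes name the mouse build mm10, whereas the study's methods name hg38 for its single-cell work. The 4 matrices hold all barcodes called as cells.

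Barcodes with at least 200 genes and at most 10% mitochondrial UMIs were kept. Tumor cells had at least 5 Krt8 and Krt18 UMIs. Immune classes had at most 2, at most 25% hemoglobin UMIs and 1 gate only: at least 2 UMIs of B cell markers (Cd79a, Cd79b, Ms4a1) or of T cell markers (Cd3d, Cd3e, Cd3g, Trac, Trbc1, Trbc2), at least 3 of monocyte and macrophage markers (Csf1r, C1qa, C1qb, C1qc, Fn1, Vcan, Cd68, Ms4a6c, Ms4a7) or at least 10 of neutrophil markers (S100a8, S100a9, Retnlg). Dendritic-like cells had at least 1 Irf8 and 3 Cst3 UMIs. No doublet caller was run, and tumor cells that passed an immune gate were left out in an alternative. UMIs were summed per class and sample where at least 20 cells were present, and per cell cycle range and sample with no minimum, and the sums entered the quasi-likelihood test of edgeR 4.0.16 (R 4.3.3), after filterByExpr and TMM, with p-values adjusted by Benjamini-Hochberg over all genes tested and a threshold of 0.05. The SE of an edgeR log2 difference was not taken from the fit but computed as its absolute value divided by the square root of the test's F statistic. DESeq2 1.42.0 was an alternative. Shares carry exact Clopper-Pearson intervals at 95% and levels exact Poisson intervals (scipy 1.17.1, Python 3.11.15). Exon lengths and gene positions came from GENCODE on GRCm38, and promoters from RefSeq.

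The 10 genes were described wherever they passed the filter. Other genes of the system were counted, and those past the threshold, or discussed for their role, were named after their values were seen. Members and lists were chosen with earlier results of these data known. On simulated counts with 200 genes changed by 2 on the log2 scale, the SP11 comparison recovered 186 of the 191 changed genes among 11389 tested and called 9 unchanged genes. The B cell contrast recovered 119 of 162 and called 3 unchanged genes, and the mitotic contrast 198 of 198 and 17. The uncalled members had SP11 estimates between -0.35 and 0.21, and recovery of differences that small was not simulated. Alternatives changed the tool, scaling, filters, gates, range cut and thinning, used the replicate number as a block, or left out each sample in turn. Those that left out barcodes found in another sample or the range sum of 9 cells, or took percentiles within samples, were chosen after seeing the data.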

Additional observations from a re-analysis of the deposited data

How the results depend on the processing

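Of 614 values of single members under alternatives, 556 kept their direction and their side of the threshold, 32 without a call turned sign, 22 lost a call, 4 gained one and 0 called values turned sign. In tumor cells SP11 gave 268 called genes, against 149 with DESeq2, 506 with scaling to total UMIs, 153 without tumor cells that passed an immune gate, and 78 to 425 with 1 sample left out. Within single ranges the counts were 50 (low), 114 (G1/S), 41 (histone, with 9 cells in Treated 2) and 115 (mitotic), or 100, 119, 64 and 65 with percentiles taken within samples. The 1 called member fell to 0 under DESeq2 and without barcodes found in another sample. The count was also 0 without cells that passed an immune gate and in each single range of either kind. Without those cells, and in the single ranges of the main split, Ccnd2 was too low to be tested. With the replicate number as a block, 1038 genes and 1 member were called. Same-numbered samples deviated together only weakly (r = 0.186 over 10046 genes), and the main fit did not use the numbers as pairs. With 2 pairs this r cannot decide whether they pair the samples. Depth differed by number, with medians of 10935 and 8891.5 UMIs per tumor cell in Control 1 and Treated 1. In Control 2 and Treated 2 the medians were 17214 and 19843.

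Leaving out 1 sample gave 2210 to 3937 called genes in monocytes and macrophages (3976 with all samples), 891 to 3412 genes and 3 to 7 members in B cells (3205 and 7) and 1016 to 1577 genes in the histone range (1655). In the G1/S range the 80th percentile gave 954 genes and 3 members, and leaving out shared barcodes 3 members (1546 and 5). In the histone range leaving out shared barcodes gave 1061 genes and scaling to total UMIs 5 members (3). The mean Ccnd1 share of tumor cells was 90.4%, or 94.6% per exon length. The Ccnd2 share of B cells was 56.1%, or 53.7% per exon length, 57.7% with stricter gates and 53.9% without shared barcodes. The Ccnd3 share of monocytes and macrophages was 59.1%, or 54.6% and 52.5% by the first and last of these, and stricter gates left fewer than 20 UMIs. Tumor cells with Ccnd1 were 93.5% without thinning and 52.7% at 2 UMIs or more.

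Control 2 held 13 monocytes and macrophages, too few for a sum, so SP11 in that class and its alternatives were not run. Control tumors held 1 B cell, T cells and neutrophils gave 1 sum each, and 3′ UMIs do not resolve isoforms.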
